A study of Homo sapiens with 4 samples.

Results

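The BCL2 family genes examined here are 10 genes that set whether a cell dies through its mitochondria. They were taken by gene symbol, as the entries of the deposited expression table named BCL2, BCL2L1, MCL1, BAX, BAK1, BCL2L11, BBC3, PMAIP1, BID and BAD. The list was drawn up with earlier results of these data known. All 10 were found among the 28412 genes of the table, and 9 of the 10 passed the filter on low values that left 13300 genes for testing. BCL2 itself lay below the filter and is described by its values.

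The family works through binding between its own members at the outer membrane of the mitochondrion. The anti-apoptotic proteins hold in check the effectors BAX and BAK1, which otherwise form pores that release cytochrome c and so start the caspases. The BH3-only proteins carry a single short domain of the family, by which they occupy the groove of the anti-apoptotic proteins or engage the effectors directly. In acute myeloid leukemia the family is known as a drug target, since leukemic cells lean on BCL2 or MCL1 to different degrees.

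To investigate these genes after loss of LDB1, RNA-seq libraries of cells labelled NB4, a line derived from acute promyelocytic leukemia, were compared. In 2 libraries the cells had the genotype label control and carried the vector sh-NC, and in 2 libraries they had the label LDB1 knockdown and carried sh-LDB1. Both vectors were lentiviral shRNA constructs in the study, with puromycin selection, and which LDB1 shRNA was sequenced is not given in the sources used here. No label says that the libraries of a group came from separate cultures, so p-values measure only the spread between these samples, which may be technical. LDB1, the adaptor protein that the shRNA targets, had 135.1 and 120.1 FPKM (a read level corrected for gene length and library depth) in sh-NC, and 10.2 and 9.47 FPKM in sh-LDB1. Its level in sh-LDB1 was 7.73% of that in sh-NC (adjusted p = 6.931e-05, limma). Between 14151969 and 16343521 reads per library were recovered from the FPKM.

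The label was set against markers of both lineages. Of 11 granulocytic markers, 9 were analysed here, and 3 of those 9 were below 1 FPKM in every library, among them ELANE, which was listed at 0 in 3 of 4 libraries. MPO and CTSG were not analysed here. Of the 6 granulocytic markers tested, 4 were called higher and 0 lower in sh-LDB1 at an adjusted p below 0.05 (limma). Among all genes tested, 29.9% were called higher and 37.4% lower. The summed granulocytic level was 13.2 and 11.9 FPKM in sh-NC and 41.5 and 37.9 FPKM in sh-LDB1. The 14 erythroid markers, globin genes among them, summed to 4187 and 4372 FPKM in sh-NC and to 389.8 and 353.4 FPKM in sh-LDB1. All 14 were called lower, against 37.4% of all genes tested. The sh-NC libraries thus held abundant erythroid transcripts and little of the granulocytic ones, which goes against a promyelocytic line. Both sums moved with the groups, so every difference of a BCL2 family gene described here moved beside them, and their part in it was not tested. In a bulk library, fewer cells of a type and less RNA per cell cannot be told apart.

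Results showed that 4 members differed between the groups, and that they did so in both directions. BAK1 and PMAIP1 were higher in sh-LDB1, and BBC3 and BID were lower. Of the 9 members tested, 2 were thus called higher and 2 lower at an adjusted p below 0.05 (limma on log2(FPKM + 1), Benjamini-Hochberg). Among all genes tested, 67.4% were called in either direction, 29.9% higher and 37.4% lower, and the share among the members was not tested against these. With a fold above 2 or below 0.5 added, 1 member was higher, BAK1, and 1 lower, BID, against 9.5% and 10.3% of all genes and 19.8% in either direction. When the change was tested against 2-fold itself (limma treat), 0 members were called in either direction, with BID at an adjusted p of 0.0708 and BAK1 at 0.594, and at an unadjusted p below 0.05 there was 1 member, BID. In 8 of the 9 members tested the sh-LDB1 libraries lay wholly above or wholly below the sh-NC libraries, as they did for 84.6% of all genes tested.

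The median difference of the 9 members was -0.05 on the log2(FPKM + 1) scale, and that of all genes was -0.08. The median size of the difference, without its sign, was 0.40 for the members and 0.51 for all genes. Differences on this scale understate the change of genes with low FPKM. Scaling mattered for the members with small differences. When each library was rescaled to the same summed FPKM, the median of all genes shifted by 0.139, and when rescaled by its median ratio over expressed genes it shifted by 0.102. Taken relative to the median of all genes, BAK1 stood at 1.23, PMAIP1 at 1.00, BBC3 at -0.69 and BID at -1.19, and BCL2L1 and BCL2L11 at -0.02 and -0.01.

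**Figure D1:**
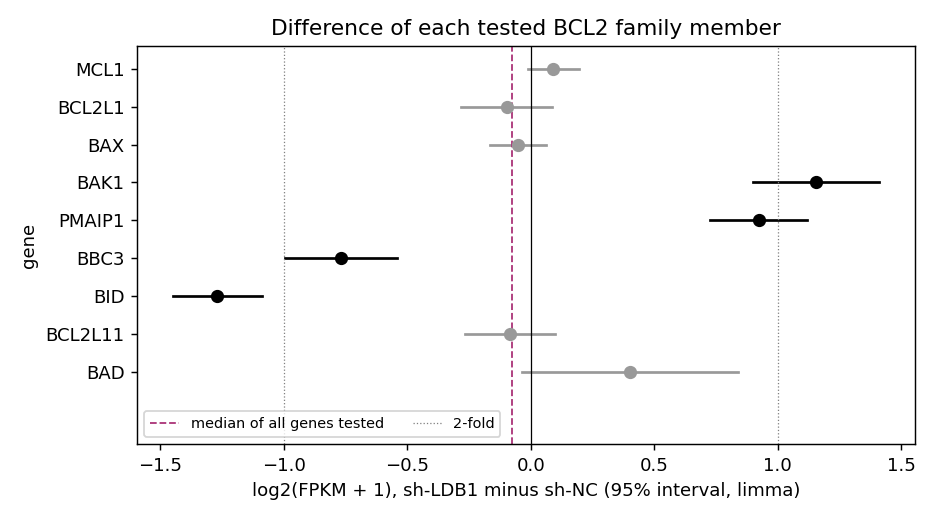
Difference of each of the 9 tested BCL2 family members on the log2(FPKM + 1) scale, sh-LDB1 minus sh-NC, with 2 libraries per group. Points are limma estimates and bars their 95% intervals, black where the adjusted p is below 0.05 and grey where it is not. BAK1 and PMAIP1 lie to the right of 0, BBC3 and BID to the left, and the intervals of the other 5 members include 0.

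Among the anti-apoptotic genes, both abundant members kept close levels while BCL2 was low in every library. MCL1, a short-lived protein on which many myeloid cells depend, is encoded on chromosome 1 (GRCh38, 150560895 to 150579738, minus strand). It had 55.2 and 54.2 FPKM in sh-NC and 58.0 and 58.6 FPKM in sh-LDB1. The sh-LDB1 libraries were both slightly above the sh-NC libraries. The difference was 0.09 (log2, SE 0.0385, 95% interval -0.01 to 0.19) and was not past the threshold (adjusted p = 0.09625, limma). It passed the threshold under both rescalings, at 0.26 (adjusted p = 0.00498) with equal summed FPKM and at 0.21 (adjusted p = 0.00838) with the median ratio. The MCL1 locus overlaps ADAMTSL4 on the opposite strand, which had 53.2 and 49.7 FPKM in sh-NC and 31.3 and 32.3 FPKM in sh-LDB1. The use of strand in counting is not given in the sources used here, so reads from a stretch shared by opposite genes cannot be told apart.

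BCL2L1, which encodes BCL-xL, a survival factor of maturing erythroid cells and of platelets, lies on chromosome 20 (31664452 to 31723989, minus strand). It had 33.4 and 31.2 FPKM in sh-NC and 31.7 and 28.6 FPKM in sh-LDB1. It was the only member whose groups overlapped, since sh-LDB1 replicate 1 was above sh-NC replicate 2. The difference was -0.10 (95% interval -0.28 to 0.09, adjusted p = 0.267), and its sign turned to positive under both rescalings, at 0.070 and 0.024. Its summed levels over transcripts cannot show the balance of the long anti-apoptotic and the short pro-apoptotic form, since the table holds 1 value per gene. The same holds for the splice forms of MCL1 and BCL2L11.

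BCL2, the founding member and the target of venetoclax, lies on chromosome 18 (63123346 to 63320128, minus strand). It had 0.798 and 0.767 FPKM in sh-NC and 0.281 and 0.337 FPKM in sh-LDB1. These values rest on 152 and 133 recovered reads in sh-NC and on 53 and 60 in sh-LDB1. Both sh-LDB1 libraries were below both sh-NC libraries, and the mean FPKM was 2.53-fold lower. BCL2 was left out of the main test by the filter on low values. In the fit without that filter the difference was -0.45 (SE 0.0933, adjusted p = 0.0362). Per length, BCL2 made up 0.893% and 0.889% of the summed FPKM of the 3 anti-apoptotic members in sh-NC against 0.313% and 0.385% in sh-LDB1. The sum of these 3 was 89.4 and 86.2 FPKM in sh-NC and 90.0 and 87.6 FPKM in sh-LDB1, and the groups overlapped. This overlap is on the deposited scaling, and both rescalings raise sh-LDB1 relative to sh-NC.

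The effectors parted. BAK1 rose in sh-LDB1, while BAX stayed within a narrow range. BAX, the effector that sits mostly in the cytosol until it is activated, lies on chromosome 19 (48954815 to 48961798, plus strand). It had 25.2 and 25.6 FPKM in sh-NC and 24.2 and 24.7 FPKM in sh-LDB1. The sh-LDB1 values were both slightly lower, with a difference of -0.05 (SE 0.0421, 95% interval -0.17 to 0.06, adjusted p = 0.323). Under both rescalings this difference turned positive, at 0.11 and 0.068, and did not pass the threshold.

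BAK1, the effector that resides in the outer mitochondrial membrane, lies on chromosome 6 (33572547 to 33580293, minus strand). It had 11.7 and 9.75 FPKM in sh-NC and 24.3 and 25.8 FPKM in sh-LDB1. The groups were wide apart, with 419 and 318 recovered reads in sh-NC against 861 and 863 in sh-LDB1. The mean rose from 10.7 ± 1.38 to 25.0 ± 1.05 FPKM (SD, n = 2 libraries per group), which is 2.33-fold. On the log2 scale the difference was 1.16 (SE 0.0959, 95% interval 0.90 to 1.41, adjusted p = 0.0007016). The processed pseudogene BAK1P1 on chromosome 20 could share reads with BAK1, and it had 7 and 7 reads in sh-NC against 17 and 10 in sh-LDB1. BAK1 made up 31.7% and 27.6% of the summed effector FPKM in sh-NC against 50.1% and 51.1% in sh-LDB1. The ratio of BAK1 to BAX, both per length, was 0.465 and 0.381 in sh-NC against 1.00 and 1.04 in sh-LDB1.

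The promoters of this pair are shown because one gene rose and the other had an interval that included 0. Each is the window of 250 bases before the RefSeq start (GRCh38.p14), printed in the direction of the gene, and capitals mark the motifs searched on both strands. These were the E-box CACGTG, the CREB and ATF core TGACGT, the GC box GGGCGG, the GATA sequence AGATAA and the STAT sequence TTCNNNGAA. The BAK1 window is chr6:33580277-33580526 on the minus strand and the BAX window is chr19:48954625-48954874 on the plus strand.
BAK1 promoter: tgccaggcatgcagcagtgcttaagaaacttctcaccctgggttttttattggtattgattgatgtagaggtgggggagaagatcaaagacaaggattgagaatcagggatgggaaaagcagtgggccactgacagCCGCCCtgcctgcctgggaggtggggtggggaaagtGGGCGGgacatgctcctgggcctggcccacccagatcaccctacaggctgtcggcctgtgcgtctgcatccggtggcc
BAX promoter: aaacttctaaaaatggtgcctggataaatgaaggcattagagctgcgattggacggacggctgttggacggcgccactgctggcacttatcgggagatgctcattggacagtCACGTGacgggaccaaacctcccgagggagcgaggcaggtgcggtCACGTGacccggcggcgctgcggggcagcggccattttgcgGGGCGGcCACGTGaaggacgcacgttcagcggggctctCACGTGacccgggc
The BAX window held 4 matches to CACGTG and 1 to GGGCGG, and the BAK1 window held 2 to GGGCGG and 0 to CACGTG. Of all 35116 windows of this length in the table, 6.34% held CACGTG and 42.6% held GGGCGG. The G and C content was 58% for BAK1 and 62.8% for BAX. A match is a description of the letters only. No matches overlapped each other in these windows. RefSeq windows were matched for 9 of the 10 members, 15 windows in all, and MCL1 had no entry.

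The BH3-only genes moved in opposite directions. PMAIP1 rose, BBC3 and BID fell, and BCL2L11 and BAD did not pass the threshold. PMAIP1 encodes NOXA, a BH3-only protein that binds MCL1 above all and speeds its breakdown. It lies on chromosome 18 (59899996 to 59904305, plus strand) and had 14.3 and 16.3 FPKM in sh-NC and 30.2 and 29.4 FPKM in sh-LDB1. Both sh-LDB1 libraries were far above both sh-NC libraries. The mean rose from 15.3 ± 1.41 to 29.8 ± 0.583 FPKM (SD, n = 2 libraries per group), which is 1.95-fold. The difference on the log2 scale was 0.92 (SE 0.0736, 95% interval 0.73 to 1.12, adjusted p = 0.0006287). It stayed short of the fold threshold here and passed it under both rescalings (1.09 and 1.04) and without sh-NC replicate 2 (1.01). The ratio of PMAIP1 to MCL1, per length, was 0.259 and 0.301 in sh-NC against 0.521 and 0.502 in sh-LDB1.

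BBC3 encodes PUMA, a BH3-only protein that binds all of the anti-apoptotic members. It lies on chromosome 19 (47220822 to 47232766, minus strand) and had 16.1 and 14.0 FPKM in sh-NC and 8.73 and 8.08 FPKM in sh-LDB1. The groups were apart, with 828 and 658 recovered reads against 445 and 389. The mean fell from 15.1 ± 1.46 to 8.41 ± 0.460 FPKM (SD, n = 2 libraries per group), which left 55.8%. The difference was -0.77 on the log2 scale (SE 0.0845, 95% interval -0.995 to -0.543, adjusted p = 0.001617).

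The promoters of PMAIP1 and BBC3 are shown because these genes had nearly the same level in sh-NC and moved apart in sh-LDB1. The windows and motifs are as for the effectors. PMAIP1 has chr18:59899746-59899995 on the plus strand, and BBC3 has chr19:47232668-47232917 on the minus strand.
PMAIP1 promoter: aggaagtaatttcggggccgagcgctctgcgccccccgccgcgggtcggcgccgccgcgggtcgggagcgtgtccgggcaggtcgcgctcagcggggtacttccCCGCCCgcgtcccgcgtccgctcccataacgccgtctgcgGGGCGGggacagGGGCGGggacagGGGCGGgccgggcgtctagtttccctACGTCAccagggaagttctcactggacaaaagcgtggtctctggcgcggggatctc
BBC3 promoter: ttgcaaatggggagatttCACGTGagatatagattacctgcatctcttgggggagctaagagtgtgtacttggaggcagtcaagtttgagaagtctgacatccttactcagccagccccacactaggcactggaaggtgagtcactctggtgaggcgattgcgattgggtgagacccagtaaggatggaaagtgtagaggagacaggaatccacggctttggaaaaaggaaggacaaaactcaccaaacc
The PMAIP1 window held 4 matches to GGGCGG and 1 to TGACGT, the latter on the opposite strand, and its G and C content was 72.8%. The BBC3 window held 1 match to CACGTG and had a G and C content of 49.2%. Of all windows, 7.1% held TGACGT. Over the windows of the members, TGACGT was found for PMAIP1 and BAD and CACGTG for BAX, BBC3 and BID. GGGCGG was found for 6 of the 9 members with a window. These are counts of genes, of which BID had 5 windows, while the shares of all windows are per window. AGATAA and TTCNNNGAA were found in 0 of the 15 windows of the members, against 9.17% and 6.57% of all windows. With so few windows, this says only that these letters are not in these stretches.

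BID is the BH3-only protein that links death receptors to mitochondria once a caspase has cut it. It lies on chromosome 22 (17734138 to 17774770, minus strand) and had 10.1 and 11.0 FPKM in sh-NC and 3.85 and 3.70 FPKM in sh-LDB1. Recovered reads were 724 and 720 in sh-NC against 274 and 249 in sh-LDB1. The replicates lay close together and the groups far apart, with means of 10.5 ± 0.650 and 3.77 ± 0.103 FPKM (SD, n = 2 libraries per group). The mean was 2.79-fold lower in sh-LDB1, and the difference was -1.27 on the log2 scale (SE 0.0676, 95% interval -1.45 to -1.09, adjusted p = 0.0002237).

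BCL2L11 encodes BIM, which binds all anti-apoptotic members and activates the effectors. It lies on chromosome 2 (111119378 to 111168444, plus strand) and had 7.22 and 7.35 FPKM in sh-NC and 7.17 and 6.47 FPKM in sh-LDB1. The sh-LDB1 libraries were lower, replicate 1 by little. The difference was -0.08 (95% interval -0.27 to 0.10, adjusted p = 0.3226), and it turned positive under both rescalings, at 0.067 and 0.025. MIR4435-2HG, which overlaps BCL2L11 on the opposite strand, had 6.04 and 6.06 FPKM in sh-NC and 5.01 and 4.66 FPKM in sh-LDB1. Its part in the BCL2L11 values was not tested. BAD, a BH3-only protein that survival kinases phosphorylate and so keep away from BCL-xL, lies on chromosome 11 (64269830 to 64284704, minus strand). It had 4.20 and 3.41 FPKM in sh-NC and 4.53 and 6.23 FPKM in sh-LDB1, on 86 to 161 recovered reads, the fewest of the members tested. The groups did not overlap, but the sh-LDB1 libraries differed more from each other than replicate 1 did from sh-NC. The difference was 0.40 (SE 0.164, 95% interval -0.04 to 0.84, adjusted p = 0.08864). Without sh-LDB1 replicate 1 it was 0.59 (adjusted p = 0.0416), and without replicate 2 of that group it was 0.21. GPR137, which overlaps BAD on the opposite strand, had 3.86 and 3.55 FPKM in sh-NC and 6.35 and 6.66 FPKM in sh-LDB1, and its part in the BAD values was not tested.

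On the deposited scaling, the total of the 5 BH3-only members differed little between the groups, while its makeup differed more. Their summed level was 51.9 and 52.1 FPKM in sh-NC and 54.5 and 53.9 FPKM in sh-LDB1. PMAIP1 made up 27.6% and 31.3% of it in sh-NC against 55.5% and 54.6% in sh-LDB1. The share of BBC3 was 31.0% and 26.9% in sh-NC against 16.0% and 15.0% in sh-LDB1. BID held 19.4% and 21.1% of the sum in sh-NC against 7.05% and 6.87% in sh-LDB1. The sum depends on the scaling and on which genes are counted. All genes summed to 319063 and 319687 FPKM in sh-NC and to 285208 and 281397 FPKM in sh-LDB1. With these totals made equal, the BH3-only sums of the groups would lie further apart, while shares within a library stay the same. With BMF, a BH3-only gene outside the 10 members, the sum was 53.2 and 53.5 FPKM in sh-NC and 63.1 and 62.0 FPKM in sh-LDB1. PMAIP1 then made up 26.9% and 30.4% of it in sh-NC against 47.9% and 47.5% in sh-LDB1. A comparison of 2 libraries against 2 cannot give an exact permutation p below 0.333, so these sums and shares are given without a test.

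**Figure D2:**
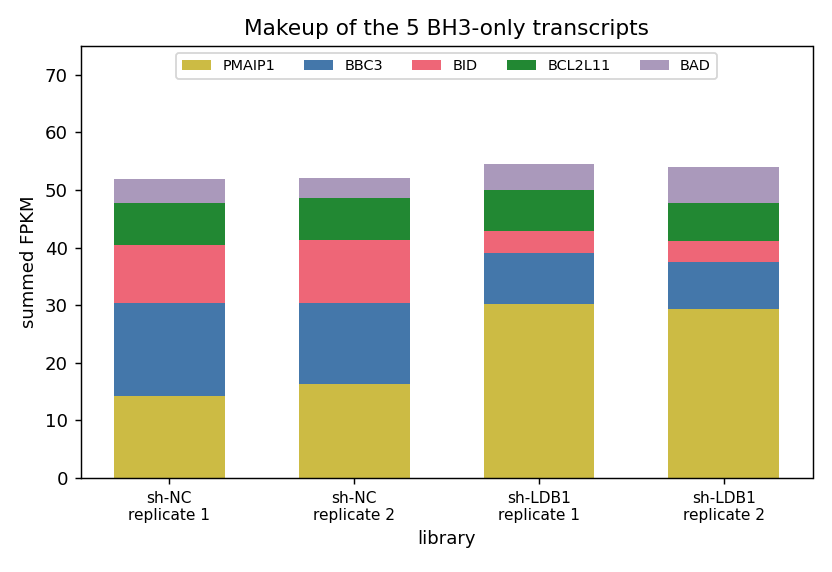
Summed FPKM of the 5 BH3-only genes in each of the 4 libraries, split by gene. The height of the bars is between 51.9 and 54.5 FPKM, while the PMAIP1 part grows from 27.6% and 31.3% in sh-NC to 55.5% and 54.6% in sh-LDB1 and the BBC3 and BID parts shrink.

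The order of the levels shifted with the same 4 genes. In sh-NC it ran, per length, from MCL1 over BCL2L1, BAX, PMAIP1, BBC3, BAK1, BID, BCL2L11 and BAD down to BCL2. The libraries of PMAIP1 and BBC3 overlapped there, as did those of BAK1 and BID. In sh-LDB1 the order was MCL1, BCL2L1, PMAIP1, BAK1, BAX, BBC3, BCL2L11, BAD, BID and BCL2. BCL2L1 and PMAIP1 overlapped in sh-LDB1, and so did BAK1 and BAX. All other neighbours were apart in both groups. The 10 genes summed to 178.1 and 173.6 FPKM in sh-NC and to 193.0 and 192.0 FPKM in sh-LDB1.

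**Figure D3:**
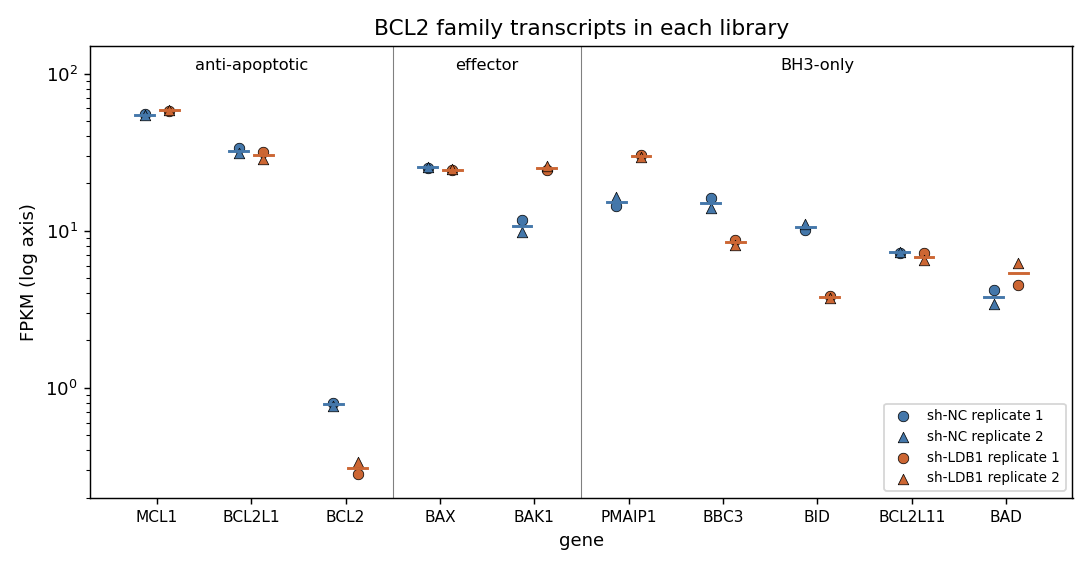
FPKM of the 10 BCL2 family genes in each library on a log axis, grouped as anti-apoptotic, effector and BH3-only, with blue for sh-NC and orange for sh-LDB1. Symbols are libraries and short lines the mean of 2. PMAIP1 and BAK1 are higher and BBC3, BID and BCL2 lower in both sh-LDB1 libraries, and MCL1 lies highest in all 4.

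Other genes of the family were examined next. Of 13 listed, 12 were in the table and 7 were tested, of which 3 were higher and 2 lower, a share called near the 67.4% of all genes tested. BMF, a BH3-only gene whose protein is tethered to the cytoskeleton, rose the most. It had 1.29 and 1.44 FPKM in sh-NC and 8.55 and 8.07 FPKM in sh-LDB1, a difference of 1.97 on the log2 scale (adjusted p = 0.0001287). BCL2L2, which encodes the anti-apoptotic BCL-w, had 10.3 and 11.0 FPKM in sh-NC and 10.6 and 11.0 FPKM in sh-LDB1, and its groups overlapped (difference 0.02, 95% interval -0.14 to 0.17). Counted with the 3 anti-apoptotic members, BCL2L2 made up between 10.4% and 11.3% of their summed FPKM in every library. BCL2A1, an anti-apoptotic gene of mature myeloid cells, had 0 reads in 3 libraries and 4 reads in sh-LDB1 replicate 2. BNIP3L, a mitophagy receptor of red cell maturation, was higher (0.48) and its relative BNIP3 was lower (-0.44). BCL2L13 was higher (0.26) and BCL2L12 lower (-0.31).

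Proteins known to act on the members made up a list of 24 genes, of which all were tested, 10 were higher and 8 lower, a share called near the 67.4% of all genes tested. The largest difference was that of MTCH2, the mitochondrial carrier homolog that receives cleaved BID. MTCH2 had 33.1 and 36.0 FPKM in sh-NC and 3.62 and 3.58 FPKM in sh-LDB1, a difference of -2.95 (adjusted p = 6.774e-05). CASP8, the initiator caspase that cleaves BID, had 3.37 and 3.88 FPKM in sh-NC and 11.2 and 12.0 FPKM in sh-LDB1, a difference of 1.44 (adjusted p = 0.0002565). BID, MTCH2 and CASP8 each differed past the 2-fold threshold, BID and MTCH2 lower and CASP8 higher. MTCH2 and CASP8 are named here for the size of their differences. Of the 24 listed genes, 5 were past 2-fold, 2 higher and 3 lower, beside 19.8% of all genes tested, so this was no feature of the list. The ratio of BID to MTCH2, per length, was 0.304 and 0.305 in sh-NC against 1.06 and 1.03 in sh-LDB1. YWHAH, one of the adaptor proteins that hold phosphorylated BAD in the cytosol, was lower (-1.64), and PPP3CA, a catalytic subunit of the phosphatase calcineurin that acts on BAD, was higher (1.20). PIM2, a survival kinase of BAD, was lower (-1.16). Other genes of these kinds went both ways. Of the YWHA genes, YWHAE (-0.87) and YWHAQ (-0.51) were lower, YWHAB (0.44) and YWHAG (0.28) higher, and YWHAZ (0.07) was not past the threshold. Of other listed kinases, PRKACA (0.44) and RPS6KA1 (0.27) were higher, and PIM1 (-0.57), AKT1 (-0.51) and PIM3 (-0.28) lower. MAPK8 (-0.20) was not past it.

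In the pathway after the pore, 10 of 11 genes were tested, 4 were higher and 4 lower, where 29.9% and 37.4% of all genes tested were. XIAP, an inhibitor of caspases, had 5.77 and 6.35 FPKM in sh-NC and 18.0 and 18.8 FPKM in sh-LDB1, a difference of 1.46 (adjusted p = 0.0001551). AIFM1 and ENDOG, a flavoprotein and a nuclease that leave the mitochondrion after pore formation, were lower (-1.46 and -1.30). APAF1, the scaffold of the apoptosome, and DIABLO, an antagonist of XIAP, were the other two genes higher past 2-fold (1.09 and 1.18), and DIABLO has a second entry under the same symbol that may share its reads. DIABLO had 0.420 and 0.501 FPKM in sh-NC and 2.42 and 2.20 FPKM in sh-LDB1, so it passed the filter only through the group where it is high and had to differ, and its call is no support for the count. The list medians were 0.02 for the other family genes, 0.03 for the proteins acting on members and -0.0099 for the pathway after the pore, beside -0.08 over all genes.

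**Figure D4:**
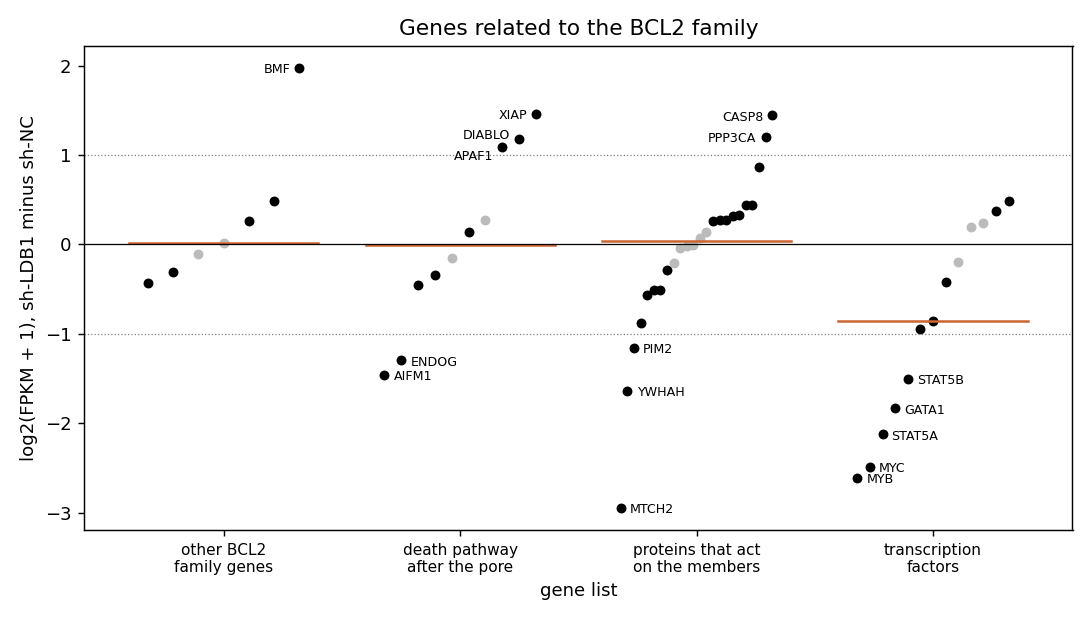
Difference on the log2(FPKM + 1) scale, sh-LDB1 minus sh-NC, of each tested gene in 4 lists of genes related to the BCL2 family. Points are genes, black where the adjusted p is below 0.05 and grey where it is not, lines are list medians, dotted lines mark 2-fold, and names are given for genes past both. The transcription factors have the lowest median, -0.85, and MTCH2 at -2.95 is the lowest point.

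Transcription factors known to act on genes of the family were the last list. All 13 were tested, 2 were higher and 8 lower (29.9% and 37.4% of all genes tested), with a median of -0.85. MYB, which is known to activate BCL2, had 24.5 and 25.3 FPKM in sh-NC and 3.41 and 3.07 FPKM in sh-LDB1 (difference -2.61). MYC had 159.1 and 160.9 FPKM in sh-NC and 27.3 and 28.1 FPKM in sh-LDB1 (difference -2.49). STAT5A and GATA1, both known to act on BCL2L1 in erythroid cells, were lower as well (-2.13 and -1.83). The 2 called higher were TP73 (0.49) and DDIT3 (0.37). Whether any of these factors acted on a member here was not tested. GATA1 is also on the erythroid marker list.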

How the data were processed

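RNA-seq was measured in 4 libraries of cells labelled NB4, and the titles gave each library its group (2 sh-NC, 2 sh-LDB1) and its replicate number. Reads were filtered and mapped with HISAT by the authors, who deposited 1 table of FPKM with a value per gene and library and made their own calls with DESeq2. The submitters' processing notes name HISAT2 2.0.5 and hg38. The gene models, the counter and its strand setting are not given in the sources used here. The table had 0 columns of no sample. The deposited FPKM already hold a median-of-ratios scaling, since every library had the same median ratio of 1.0083.

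Whole reads were recovered from the steps of the FPKM. For each gene, lengths from 0.1 to 2 times that of GENCODE 44 were searched for one giving whole reads within 0.002. Such a length was found for 99% of genes with an annotated length, counting genes at 0 in every library. With the annotated length itself, 78% of the values of genes with 1 transcript were whole. The recovered reads serve as depth and in the voom alternatives. The 28412 genes were filtered to those whose FPKM averaged at least 1 over all 4 libraries, which left 13300. Levels were taken as log2(FPKM + 1). The sh-LDB1 libraries were compared with sh-NC by limma 3.58.1 in R 4.3.3 (lmFit, eBayes with trend, two-sided, no replicate block). P-values were adjusted over all 13300 genes by Benjamini-Hochberg, with thresholds of 0.05 and a fold above 2 or below 0.5. Other steps used Python 3.11.15, pandas 2.3.3 and numpy 2.4.6, and the fit was tested on simulated data.

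The members and gene lists were chosen with earlier results of these data known. From the lists of related genes, the text names up to 4 of each with the largest differences past both thresholds, with BCL2A1, BCL2L2 and BMF. The marker lists are given by counts and sums, with ELANE, MPO and CTSG named for being at or near 0 or not analysed. CEBPE and MS4A3 were named after their values were seen, for going against the sum. APAF1, PIM2, BNIP3, BNIP3L, BCL2L12, BCL2L13, the other YWHA and kinase genes and genes overlapping a member were added after their values were seen. So were TP73 and DDIT3. Of the lists as first drawn up, 2 genes are not reported here and were left out of the counts and medians. The alternatives were other pseudocounts, filters and scalings, no trend, the replicate block, leaving out each library, a test against a fold of 2, and voom on the recovered reads. One, voom with only the totals of recovered reads as scaling, was chosen after seeing the data. Promoter windows came from RefSeq.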

Additional observations from a re-analysis of the deposited data

How the results depend on the processing

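BAK1, PMAIP1, BBC3 and BID kept their direction and their side of the threshold under all 14 alternatives tried for each, with differences on the log2 scale from 1.03 to 1.33, 0.83 to 1.09, -0.86 to -0.61 and -1.48 to -1.12. Of 212 values under alternatives, 187 kept direction and call, 8 were past the threshold only there, 8 counts moved by over 1.5 times, 9 turned sign and 0 lost a call. The 8 past the threshold include BCL2, which had no main test and was fitted only without the filter on low values. For single genes, the test against a fold of 2 is not among these values, and BID and BAK1 were not called in it. The cause of the changes between settings was not tested.

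Scaling changed the most. With equal summed FPKM, the median ratio and voom on totals only, in this order, the sign turned for BCL2L1 (0.070, 0.024 and 0.0095), BCL2L11 (0.067, 0.025 and 0.015) and BAX (0.11, 0.068 and 0.056), of which none passed the threshold. MCL1 passed it in these 3 settings (0.26, 0.21 and 0.20). BAD passed with equal summed FPKM (0.54), voom (0.47), voom on totals only (0.58) and without sh-LDB1 replicate 1 (0.59). Members called higher numbered 4 with equal summed FPKM and with voom on totals only, against 2. Those higher past 2-fold numbered 2 in these settings and with the median ratio, against 1. In limma's treat against a fold of 2, 0 members were called higher and 0 lower, and 1 (BID) had an unadjusted p below 0.05. BCL2 without a filter was at -0.45.

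With each library left out in turn, members higher past 2-fold numbered 1 to 2 (2 without sh-NC replicate 2). BAD ranged from 0.21 to 0.59, BAK1 from 1.03 to 1.28, PMAIP1 from 0.83 to 1.01, BBC3 from -0.86 to -0.68 and BID from -1.33 to -1.21. Leaving out a library leaves 1 sample in a group, which is assumed to vary like the other group. The replicate block left every difference as it was, for example 0.40 for BAD (adjusted p = 0.113) and 1.16 for BAK1 (adjusted p = 0.00162), and changed no member's call. The deviations of same-numbered libraries had a correlation of 0.0196 over 13300 genes. Whether these libraries shared a culture or batch cannot be told from this value, and the labels give only the number.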
